A study of Mus musculus with 8 samples.

Results

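Pre-mRNA splicing factors of the SR, hnRNP, SF3 and U2AF families, with the branch point binding protein gene Sf1 and the splicing factor kinase gene Uhmk1, were followed in alphaTC6, a line of glucagon-producing alpha cells from the mouse pancreas. Members were all genes of the count table whose symbol begins with Srsf and a digit, Hnrnp, Sf3a, Sf3b or U2af, plus Uhmk1 and Sf1. Of 47 such rows among 55536, 2 with a pseudogene suffix (-ps) and 2 with a mean under 1 CPM (a gene’s counts relative to the scaled size of its library; Srsf12 and U2af1l4) were left out. This left 43 genes: 10 SR protein genes, 20 hnRNP genes, 9 SF3A or SF3B subunit genes, 3 genes for recognition of the 3′ splice site (Sf1, U2af1 and U2af2) and Uhmk1. All 43 were among the 16333 genes kept for testing. Cells labelled as wild type had been reverse transfected for 48 h with a scramble siRNA (4 libraries) or with a pool of siRNAs against Klf4, a zinc finger transcription factor (4 libraries), and poly(A) RNA was sequenced. Scramble replicates 1 and 2 and Klf4 siRNA replicates 1, 2 and 4 were labelled batch 1. Scramble replicates 3 and 4 and Klf4 siRNA replicate 3 were labelled batch 2. What the batches stand for was not given in the labels, 1 cell line was used, and the protocol text names islets where the sample labels name the cell line.

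Splicing begins when SF1 binds the branch point of an intron and the U2AF heterodimer binds the pyrimidine tract and the AG of the 3′ splice site. The U2 particle, which carries the SF3A and SF3B complexes, then replaces SF1 at the branch point. SR proteins mostly promote the use of nearby splice sites, hnRNP proteins coat nascent RNA and often oppose them, and the kinase KIS, encoded by Uhmk1, carries a U2AF-like domain and phosphorylates SF1. Many SR and hnRNP genes limit their own RNA through unproductive splicing.

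Libraries held 45954151 to 64185987 counts. Klf4 itself was measured at 39.2, 35.1, 46.3 and 46.8 CPM in scramble replicates 1 to 4 and at 12.5, 11.5, 19.8 and 18.8 CPM in Klf4 siRNA replicates 1 to 4, so that every knockdown library lay below every control (log2 fold change -1.33, SE 0.17, edgeR adjusted p = 0.0083). Without scramble replicate 1 its edgeR adjusted p was 0.052. The 10 alpha cell markers summed to 6544 to 14534 CPM in scramble and 6358 to 13180 CPM in Klf4 siRNA libraries, whereas the 15 markers of other pancreatic cells summed to 6.90 to 7.94 and 6.78 to 8.15 CPM, with Ins1, Ins2, Prss2 and Amy2a5 at 0 counts throughout. Of the alpha cell markers, 9 were readily detected and Gc had at most 4 counts in a library. In bulk RNA, a change in the share of cells and a change in RNA per cell cannot be told apart.

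Few of the splicing factor genes changed after Klf4 siRNA, and Uhmk1 was the one that changed by more than 0.3 on the log2 scale. Uhmk1 rose by 48.9%, Sf3a2 rose by 7.92%, Hnrnpab fell to 86.1% and Hnrnpll to 93.9% of the control level. No SR protein gene and no 3′ splice site gene passed the test. In all, 4 of 43 members (9.30%) had an edgeR adjusted p under 0.05, 2 higher and 2 lower, against 11.7% of all genes tested (4.88% higher, 6.81% lower). Among the 4998 genes with a mean at or above that of the least abundant member (48.6 CPM), 21.6% passed. Uhmk1 was placed in the set with its rise already known, and without it 3 of 42 members (7.14%) passed, 1 higher and 2 lower. The members' share was thus near or below the background. With library size alone as the scaling, 2 members were higher and 1 lower. Their median log2 fold change was 0.032, beside 4.3e-05 for all genes tested and 0.0088 for genes at or above the members' lowest level. Positive values were found for 31 members and negative values for 12. Among all 16333 genes tested 8172 were positive, as were 2737 of the 4998 genes at or above the members' lowest level. The same 4 members passed with DESeq2, limma-voom, DESeq2 size factors and in batch 1 alone. The count was 2 (Uhmk1 and Hnrnpab) without scramble replicate 1, 2 or 3 or without Klf4 siRNA replicate 1 or 4, and 2 without the batch term.

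**Figure D1:**
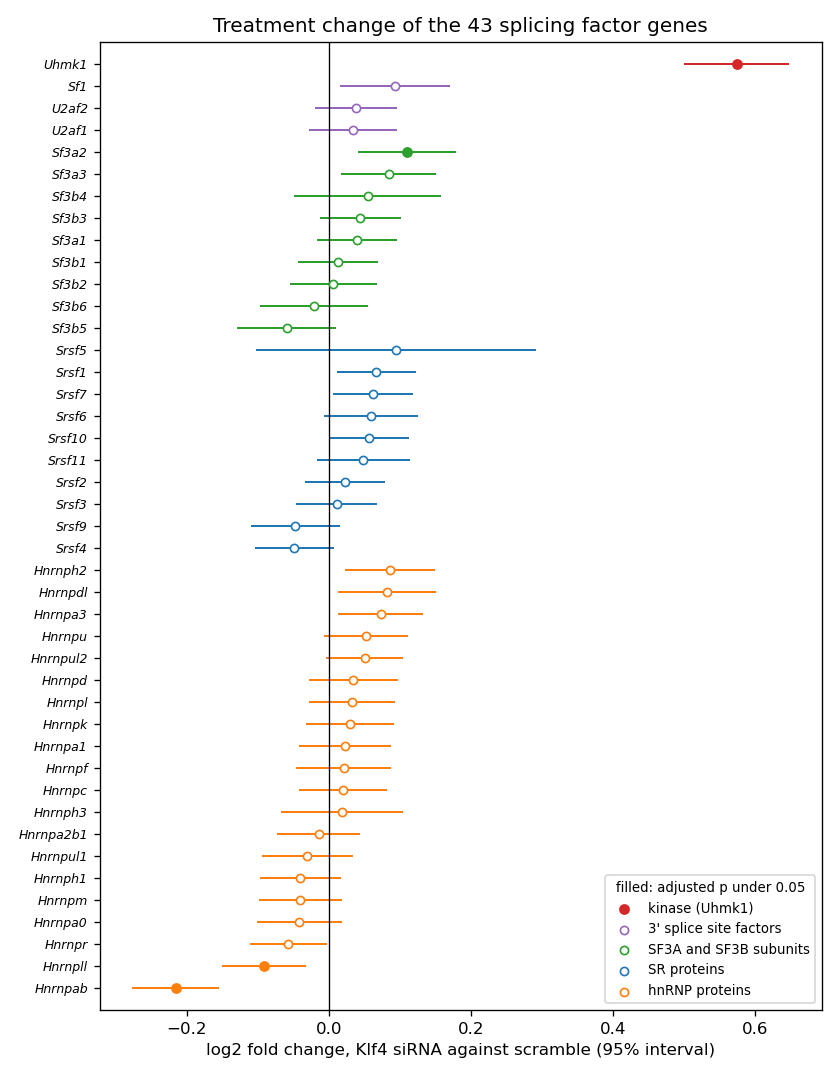
Log2 fold change of each of the 43 genes after Klf4 siRNA against scramble (x axis) with its 95% interval, ordered by role and then by size (y axis). Filled points passed an edgeR adjusted p of 0.05: Uhmk1 at 0.57, Sf3a2 at 0.11, Hnrnpll at -0.091 and Hnrnpab at -0.22, whereas the other 39 lie between -0.059 and 0.094.

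The intervals show how large a change could have been missed. For 38 of the 39 genes that did not pass, the whole 95% interval of the log2 fold change lay within 0.2 of no change, which is 14.9% up or 12.9% down. Of genes at or above the members' lowest level, 3726 of the 3917 that did not pass met the same bound. Over all genes tested it was 7078 of 14424. The exception among the members was Srsf5, which was singled out after its values were seen. Srsf5, an SR protein gene, had 255.4, 234.9, 274.6 and 280.5 CPM in scramble replicates 1 to 4 and 261.2, 235.0, 289.4 and 299.3 CPM in Klf4 siRNA replicates 1 to 4. Klf4 siRNA replicates 3 and 4 were above every control, the other knockdown libraries lay within the control range, and replicate 2 was lowest in each treatment. Its log2 fold change was 0.094 with an interval from -0.10 to 0.29 (SE 0.08, edgeR adjusted p = 0.571).

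Uhmk1 (ENSMUSG00000026667, chromosome 1, 170193420 to 170215397 of GRCm38, minus strand) was named for this set because its rise was already known. It had 378.2, 409.7, 417.8 and 384.0 CPM in scramble replicates 1 to 4, and 602.7, 608.6, 567.1 and 598.7 CPM in Klf4 siRNA replicates 1 to 4. The lowest knockdown library, that of batch 2, was well above the highest control. The log2 fold change was 0.57 with a 95% interval from 0.50 to 0.65 (edgeR adjusted p = 2.58e-09), 0.62 within batch 1 and 0.50 within batch 2. It passed the threshold in all 17 alternative analyses, with values from 0.53 to 0.62. Exons of Uhmk1 share 425 bases, or 5.25% of their length, with the antisense transcript 4930500M09Rik, which had 165 counts over all 8 libraries and whose own log2 fold change was 0.95 (edgeR adjusted p = 0.031). Uhmk1 had 215906 counts. Because use of strand in counting was not given in the sources used here, reads of the shared stretch could belong to either gene, and their part in the result was not tested.

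**Figure D2:**
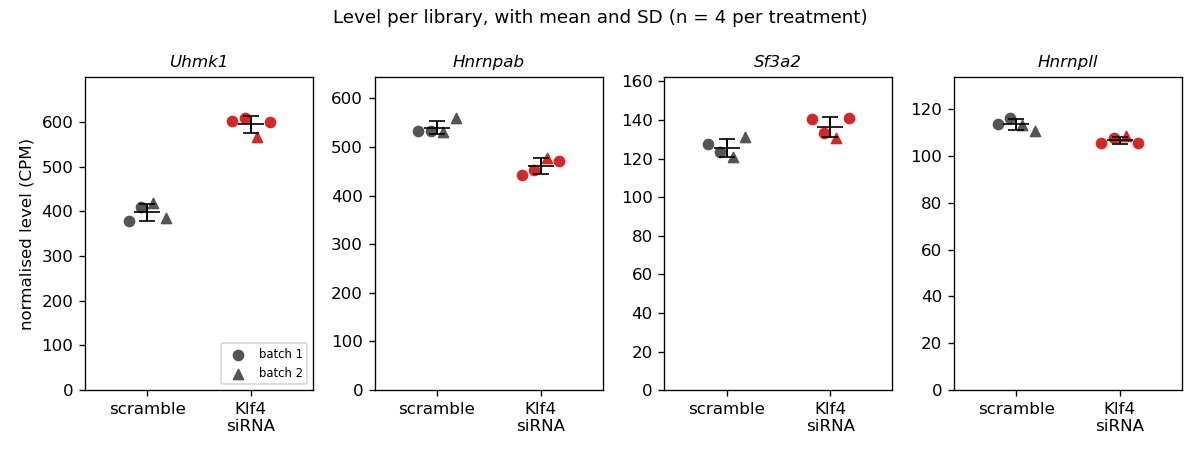
Normalised level in CPM (y axis, from 0) of the 4 genes that passed the test, for each scramble and Klf4 siRNA library (x axis), with circles for batch 1, triangles for batch 2 and bars for the mean and SD of 4 libraries. For Uhmk1, Hnrnpab and Hnrnpll the treatments do not overlap, whereas for Sf3a2 the highest scramble library (131.1 CPM) lies above the lowest Klf4 siRNA library (130.7 CPM).

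Sf1, whose protein is a substrate of the Uhmk1 kinase, had 406.2, 393.6, 401.6 and 407.8 CPM in scramble replicates 1 to 4 and 429.2, 406.6, 418.8 and 465.8 CPM in Klf4 siRNA replicates 1 to 4. The treatments overlapped by 1 library, Klf4 siRNA replicate 2, and Klf4 siRNA replicate 4 was the highest. The log2 fold change was 0.093 (95% interval 0.016 to 0.17, edgeR adjusted p = 0.118). Leaving out Klf4 siRNA replicate 2 gave 0.12 (edgeR adjusted p = 0.045), the only alternative in which Sf1 passed. Without Klf4 siRNA replicate 4, the highest library, the value was 0.058 (edgeR adjusted p = 0.211). Without scramble replicate 2 it was 0.074 (edgeR adjusted p = 0.411). U2af2, the large subunit that reads the pyrimidine tract, had a log2 fold change of 0.038, and U2af1, the small subunit that reads the AG, one of 0.034 (edgeR adjusted p = 0.458 and 0.558). Their upper 95% limits were 0.095 and 0.096. Other known substrates or partners of the kinase were also measured. Cdkn1b, the cell cycle inhibitor p27, had a log2 fold change of 0.060, Stmn1, the microtubule regulator stathmin, one of -0.072, and Pam, the peptide amidating enzyme, one of 0.14 (edgeR adjusted p = 0.165, 0.169 and 0.228). None of the 4 genes of that list passed the threshold in edgeR. An unadjusted p under 0.05 was found for 2 of them, beside 23.9% of all genes tested and 38% of genes at or above the members' lowest level, and Pam differed between batches by 0.79 on the log2 scale.

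Of the 9 SF3 genes, Sf3a2 passed (11.1%, beside 11.7% of all genes tested and 21.6% of genes at or above the members' lowest level). Values were above 0 for 7 and below 0 for 2, beside 2737 and 2261 of the 4998 genes at that level. Sf3a2 (ENSMUSG00000020211, chromosome 10, 80798198 to 80804924, plus strand), a subunit of the SF3A complex that helps the U2 particle bind the branch point, had 127.6, 123.4, 120.6 and 131.1 CPM in scramble replicates 1 to 4 and 140.7, 133.4, 130.7 and 141.0 CPM in Klf4 siRNA replicates 1 to 4. In batch 1 every knockdown library was above both controls, and in batch 2 the knockdown library lay between the controls, near the higher one. The log2 fold change was 0.11 (SE 0.03, edgeR adjusted p = 0.036), 0.14 within batch 1 and 0.056 within batch 2. Its adjusted p was 0.123, 0.236 and 0.087 without scramble replicates 1, 2 and 3, 0.097 and 0.052 without Klf4 siRNA replicates 1 and 4, and 0.168 without the batch term. Exons of Sf3a2 overlap those of Plekhj1 on the opposite strand over 429 bases, and Plekhj1 had a log2 fold change of -0.0029. Sf3a3, another SF3A subunit, had a value of 0.084 (adjusted p = 0.10) and passed without scramble replicate 4. Sf3b1, the subunit that grips the branch point helix, had 0.013 with a 95% interval from -0.043 to 0.069.

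None of the 10 SR protein genes passed in edgeR, where 2 had an unadjusted p under 0.05 (Srsf1 and Srsf7, looked up after their values were seen), a share below the same 23.9% and 38%. The 10 genes had log2 fold changes from -0.049 to 0.094, with a median of 0.052. Values were above 0 for 8 of them, beside 2737 of the 4998 genes at or above the members' lowest level. The direction was the same within both batches for all 10, against 64.8% of all genes tested and 74.2% of genes at that level. Srsf1, the prototype of the family, had 446.4, 458.0, 440.0 and 426.6 CPM in scramble replicates 1 to 4 and 474.6, 475.4, 453.4 and 471.6 CPM in Klf4 siRNA replicates 1 to 4, so that 1 knockdown library lay within the control range (log2 fold change 0.067, edgeR adjusted p = 0.121). Srsf7 was the 1 SR gene whose treatments did not overlap, at 140.8 to 150.5 CPM in the controls and 151.8 to 157.8 CPM in the knockdown libraries (0.061, adjusted p = 0.167). Over all members, the treatments did not overlap for 2 genes that were higher (Uhmk1 and Srsf7) and 2 that were lower (Hnrnpab and Hnrnpll), beside 10.5% of all genes tested, 4.97% higher and 5.55% lower. The direction was the same within both batches for 33 of the 43.

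Among 20 hnRNP genes, 2 passed (10%, near the 11.7% of all genes tested and below the 21.6% of genes at or above the members' lowest level), both lower, and the median log2 fold change was 0.020. Hnrnpab (ENSMUSG00000020358, chromosome 11, 51600100 to 51606847, minus strand), which encodes an RNA binding protein also known as CBF-A, had 533.8, 533.0, 531.9 and 559.7 CPM in scramble replicates 1 to 4. In Klf4 siRNA replicates 1 to 4 it had 443.1, 452.8, 476.8 and 470.6 CPM. All knockdown libraries were below all controls. The log2 fold change was -0.22 (SE 0.03, 95% interval -0.28 to -0.15, edgeR adjusted p = 3.56e-05), -0.23 within batch 1 and -0.19 within batch 2, and it passed in all 17 alternative analyses. On the opposite strand, Phykpl shares 809 bases of exon with Hnrnpab, or 29.1% of its exon length. Phykpl was measured at 8.46 ± 0.219 CPM in the controls and 8.77 ± 0.451 CPM in the knockdown libraries (SD, n = 4 each), with a log2 fold change of 0.044.

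Hnrnpll (ENSMUSG00000024095, chromosome 17, 80029487 to 80062334, minus strand), known for its role in alternative splicing of the CD45 transcript in lymphocytes, had 113.8, 116.1, 113.2 and 110.5 CPM in scramble replicates 1 to 4. It had 105.3, 107.6, 108.3 and 105.3 CPM in Klf4 siRNA replicates 1 to 4. The treatments did not overlap, and the nearest libraries were scramble replicate 4 and Klf4 siRNA replicate 3, both of batch 2. The log2 fold change was -0.091 (SE 0.03, edgeR adjusted p = 0.042), -0.12 within batch 1 and -0.046 within batch 2. It passed without scramble replicate 4 and with no other single library left out: the adjusted p was 0.156, 0.255 and 0.079 without scramble replicates 1 to 3 and 0.101, 0.062, 0.057 and 0.055 without Klf4 siRNA replicates 1 to 4. Nor did it pass with the replicate block (0.072), without the batch term (0.155), with library size alone (0.10) or with no filter (0.066). The other 18 hnRNP genes lay between -0.057 (Hnrnpr) and 0.086 (Hnrnph2) on the log2 scale. Hnrnpa1, the classic antagonist of SR proteins, was at 0.023, and Hnrnpa2b1 at -0.015.

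Level was compared between genes per kilobase of annotated exon, since longer transcripts give more counts. Exons were merged over all annotated transcripts of a gene, so levels per kb also depend on the annotation. By this measure Hnrnpa2b1 (195.8 CPM per kb), Hnrnpab (179.8) and Hnrnpa1 (171.7) were the highest of the 43 and Hnrnpr (7.48) and Hnrnpll (9.42) the lowest. The member with the largest relative fall was thus among the most abundant hnRNP genes per length. Hnrnpr had 166.0 CPM over 22199 bases of merged exon. Hnrnph3, at 48.6 CPM over 3151 bases, stood above it at 15.4 CPM per kb. The median was 68.7 CPM per kb for hnRNP genes, 48.9 for SR genes and 33.4 for SF3 genes, with 61.2 for Uhmk1. All members together took 1.41% to 1.49% of the counts in scramble libraries and 1.45% to 1.53% in Klf4 siRNA libraries.

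**Figure D3:**
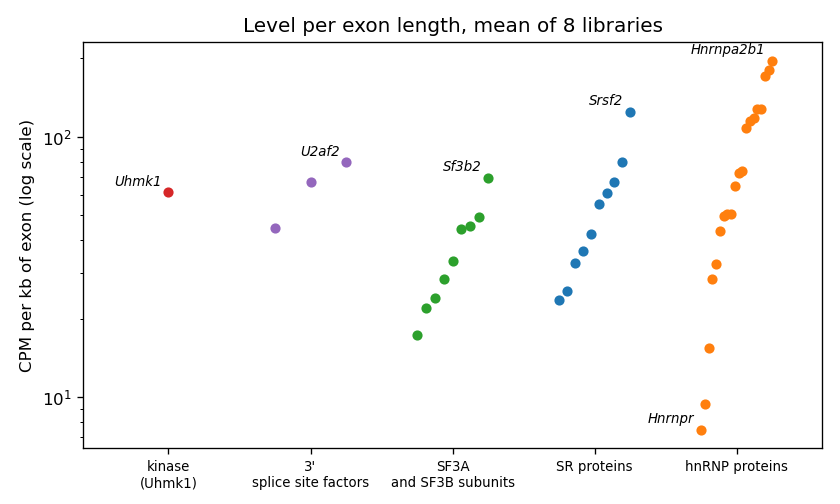
Mean level over 8 libraries in CPM per kb of exon (y axis, log scale) for each gene, in columns by role (x axis) and sorted within a column. Exons were merged over annotated transcripts. The hnRNP genes span the widest range, from 7.48 for Hnrnpr to 195.8 for Hnrnpa2b1, and Uhmk1 stands at 61.2.

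The annotation was read for features that the choice of genes did not use. At least 1 transcript marked as a target of nonsense-mediated decay, the form taken by unproductive splicing, is annotated for 9 of 10 SR genes, 10 of 20 hnRNP genes, all 3 of the 3′ splice site genes and 1 of 9 SF3 genes, against 28.6% of the protein coding genes tested. The share was 53.5% for all members, 48.2% for the 110 further listed genes described below and 53.3% for the 45 splicing regulators among these. Members had a median of 7 annotated transcripts and protein coding genes tested 5. No decay transcript is annotated for Uhmk1, Hnrnpab and Sf3a2, and 1 is for Hnrnpll. Counts per gene add up all such transcripts, so productive and unproductive forms cannot be told apart here. Processed copies are a further feature: 16 members have at least 1 annotated pseudogene with 95% identity over at least 200 bases, led by Hnrnpa3 with 35. The counts of these pseudogene rows came to at most 5.27% of the gene's own, for Hnrnpk, and to 0.102% for Uhmk1. Hnrnpab, Sf3a2 and Hnrnpll have none.

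Promoters were searched for words bound by KLF factors, because the treatment lowered such a factor. RefSeq promoters of GRCm38.p6, from 250 bases before to 50 bases after a start, were matched by symbol for 38 of the 43 genes (53 promoters), which leaves U2af2, Sf3b4, Sf3b5, Hnrnpll and Hnrnpul2. On either strand, the KLF4 word GGGTGTGG was found in 1 of the 53 (1.89%) and its variant GGGCGTGG in 2 (3.77%), against 3.56% and 5.33% of all 32851 promoters. The core CACCC, which the first word contains on its other strand, was found in 56.6% of the 53 and in 57.5% of all. The windows below hold the words in members' promoters, written 5′ to 3′ on the strand of the gene with the word in capitals, and the Uhmk1 window holds the core alone. The words of Sf3b6, Hnrnpf and Hnrnph3 lie on the other strand and so appear as the reverse complements CCACACCC or CCACGCCC.
Sf3b6: cgctccttaagCCACACCCcctcaagcgga
Hnrnpf: ccgcccaccgcCCACGCCCggcccgagcga
Hnrnph3: tcgctgcgactCCACGCCCaccacggtggc
Uhmk1: ctactgtgctaCACCCcatctctaataatt
The Sf3b6 window is chr12:4817461-4817490, plus strand, that of Hnrnpf chr6:117907773-117907802, plus strand, that of Hnrnph3 chr10:63024052-63024081, minus strand, and that of Uhmk1 chr1:170215529-170215558, minus strand. The 3 genes with a full word had log2 fold changes of -0.021 (Sf3b6), 0.021 (Hnrnpf) and 0.018 (Hnrnph3), none past the threshold. The promoters of Hnrnpab and Sf3a2 hold none of the 3 words. A match describes letters and not binding.

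Differences between batches were found for members of the SR, hnRNP and SF3 families and for neither Uhmk1 nor the 3′ splice site genes. Of the 43, 11 passed the test (25.6%, edgeR adjusted p under 0.05), 3 higher and 8 lower in batch 2, against 32.7% of all genes tested and 41.5% of genes at or above the members' lowest level. With library size alone, 15 members passed, 1 higher and 14 lower. None of the 11 was among the 4 that changed with treatment. Of all genes tested, 898 of the 1909 that passed for treatment also passed for batch. A set of 4 members is too small to be compared with this. Sf3b1 had 470.7 to 490.8 CPM in the 5 libraries of batch 1 and 549.7, 540.0 and 537.8 CPM in batch 2, with no overlap (log2 difference 0.18, adjusted p = 2.82e-05). Sf3b5 and Hnrnpdl were also higher in batch 2, by 0.11 and 0.092. Srsf5 had a batch difference of 0.16 that did not pass (adjusted p = 0.219). Hnrnpul2 had 206.8 to 219.3 CPM in batch 1 and 178.5, 180.6 and 188.3 CPM in batch 2 (-0.21, adjusted p = 3.66e-06), and Hnrnpf and Sf3b2 differed by -0.15 and -0.14. Subunits of 1 complex thus lay on opposite sides, Sf3b1 higher and Sf3b2 lower. Without Klf4 siRNA replicate 3, the sole knockdown library of batch 2, 5 members passed. The difference in treatment effect between batches passed for 0 of 43 members in edgeR, with 0 at an unadjusted p under 0.05 and 0 past the threshold in DESeq2 and limma-voom, against 0% of all genes at the adjusted and 3.31% at the unadjusted threshold.

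**Figure D4:**
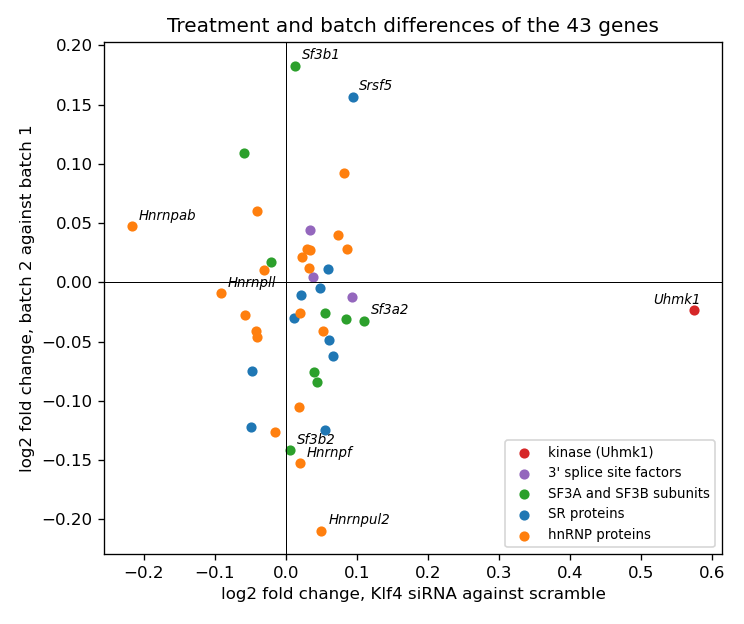
Log2 fold change by treatment (x axis) and between batches (y axis) for the 43 genes, coloured by role, with names for genes called by treatment or beyond 0.14 between batches. Uhmk1 at 0.57 stands alone on the treatment axis at a batch difference of -0.024, and Sf3b1 (0.18) and Hnrnpul2 (-0.21) end the batch axis.

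The rest of the splicing machinery was read from lists of 114 further genes, 110 of which were tested. These include the 4 genes of the list of Uhmk1 substrates and partners, none of which passed. The lists were chosen with earlier results of these data known, so their shares are not independent of the data. In all 15 passed the threshold for treatment (13.6%), 8 higher and 7 lower, with a median log2 fold change of 0.022. The share was 11.7% for all genes and 21.6% for genes at or above the members' lowest level. Without scramble replicate 1 or 2 the count was 9 in each case, and without the batch term it was 5. Among 12 SR protein kinases and import receptors, Tnpo1, an import receptor of hnRNP A1, rose by 0.22 on the log2 scale and Srpk2, a kinase of SR proteins, fell by 0.091 (edgeR adjusted p = 0.00022 and 0.047). Prpf4b did not pass (0.075, adjusted p = 0.136). Of 22 U1, U2 and Sm core genes, Snrpb fell by 0.12 and Cherp rose by 0.098 (adjusted p = 0.0046 and 0.029), and Snrpc had 0.10 (0.058). Of 27 genes of the tri-snRNP and the catalytic spliceosome, 3 passed, all higher: the helicase genes Ddx39b (0.12) and Dhx8 (0.095) and the tri-snRNP factor Prpf31 (0.13), with adjusted p-values of 0.0097, 0.044 and 0.019. Shares passing were 16.7% for the kinases and import receptors, 9.09% for the core genes and 11.1% for the tri-snRNP and catalytic genes.

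Changes larger than those of any member but Uhmk1 occurred among 45 tested splicing regulators outside the families followed here, of which 3 rose and 5 fell (17.8%, beside 11.7% of all genes tested and 21.6% of genes at or above the members' lowest level). This list too was chosen with earlier results known, so neither its share nor the genes named from it are independent of these data. Ptbp1, the polypyrimidine tract binding protein historically also called hnRNP I, had 618.8, 618.1, 605.3 and 615.0 CPM in scramble replicates 1 to 4 and 496.9, 501.3, 517.1 and 523.9 CPM in Klf4 siRNA replicates 1 to 4. Its paralogue Ptbp2, whose transcript PTBP1 is known to restrain, had 37.7, 37.5, 40.5 and 38.1 CPM in the controls and 50.2, 48.5, 51.3 and 54.9 CPM in the knockdown libraries. Neither gene's treatments overlapped, and the log2 fold changes were -0.27 (SE 0.03, edgeR adjusted p = 1.45e-06) and 0.42 (SE 0.04, 3.86e-07). Celf2, a regulator abundant in brain and muscle, had 63.9 and 64.5 CPM in the controls and 47.1, 46.6 and 49.8 CPM in the knockdown libraries of batch 1. The values of batch 2 were 85.6 and 84.3 CPM against 64.6 CPM. It fell within each batch (log2 fold change -0.41, edgeR adjusted p = 1.53e-08).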

How the data were processed

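Poly(A) RNA of 8 alphaTC6 libraries was analysed from whole-number counts per gene deposited by the authors, not normalized. Trimming with cutadapt is named in the deposited table's title. FastQC, STAR, featureCounts and DESeq2 and the build mm10 are named in the submitters' processing notes, with no settings, and use of strand was not given in the sources used here. All 55536 identifiers and symbols matched GENCODE M21 (GRCm38), which gave positions and exon lengths. Every count belonged to a gene, and every column to a library.

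Genes were kept with filterByExpr (16333), scaled with TMM and fitted with edgeR 4.0.16 (R 4.3.3), a robust quasi-likelihood model of batch and treatment with 5 residual degrees of freedom. P-values were two-sided and Benjamini-Hochberg adjusted over all genes tested, with 0.05 as the threshold. Levels are TMM-scaled CPM, and changes within a batch use log2 CPM with a prior count of 2. SE is the absolute log2 fold change over the square root of F. The design text speaks of biological replicates, and PCR duplicates are included in counts. No pair of libraries agreed within sampling noise (chi-square per degree of freedom of 10.2 or more). On simulated counts (16132 genes, 200 changed), 92% of log2 changes of 1 and 53% of those of 0.3 were recovered, and 6 of 151 calls were false.

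Named were Klf4, Uhmk1, Sf1, every member past the threshold, the 3 highest per length, the 3 largest batch differences each way (with Hnrnpdl added as the third past the threshold), and up to 3 genes per further list. Members and lists were chosen with earlier results of these data known. Alternatives were no batch term, batch 1 alone, a replicate block, DESeq2 1.42.0 (size factors or Wald test), library size alone, limma-voom (limma 3.58.1), no filter, a mean of 5 CPM and each library left out.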

Additional observations from a re-analysis of the deposited data

Results flagged for a closer look

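In 12 groups of 4 libraries (6 named genes, each in both treatments), 1 had a library far from the others, where chance gives about 1 in 20. Scramble replicate 4 was the highest control for Hnrnpab, at 559.7 CPM against 531.9 to 533.8 CPM in the other controls, a gap of 0.932 of the range. Without it the log2 fold change of Hnrnpab was -0.21 (edgeR adjusted p = 5.48e-05).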

How the results depend on the processing

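Uhmk1 and Hnrnpab passed the threshold in all 17 alternatives, Sf3a2 in 11 and Hnrnpll in 6, and none of these 4 changed direction in any. Without the batch term, 2 members, 5 genes of the further lists and 409 of all genes passed. Those lists include the substrates and partners of Uhmk1. Batch 1 alone gave 1232 genes in all (4 members), and the replicate block 1220 (3 members, without Hnrnpll). With each library left out, members called ranged from 2 to 5, genes of the further lists from 9 to 19, all genes from 934 to 2021 and members differing between batches from 5 to 12. All genes numbered 934, 1012 and 1232 without scramble replicate 1, scramble replicate 2 and Klf4 siRNA replicate 3. Members with an interaction numbered 0 in each alternative that kept batch and treatment as terms, apart from the one without Klf4 siRNA replicate 3, where it could not be fitted. It was not run without the batch term, in batch 1 alone or with the replicate block. With library size alone, members differing between batches numbered 15, 1 higher and 14 lower in batch 2. Libraries that share a replicate number did not all deviate together (correlations of 0.49, 0.42, 0.72 and -0.34 over genes tested), so the numbers were not taken as pairs. Pairs 1 to 3 each lie in 1 batch and pair 4 crosses batches, so pairing and batch cannot be told apart in these correlations. Klf4 had an adjusted p of 0.104 in batch 1 alone. The median log2 fold change of all genes stayed between -0.0037 and 0.0022. With 1 Klf4 siRNA library in batch 2, the precision of any interaction rests on that library.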

Other observations

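Of the 8 further splicing regulators past the threshold, 5 remain to be described, and they were taken for having passed. Elavl3, a member of the Hu family, had 387.1 to 405.2 CPM in the controls and 329.5 to 342.7 CPM after knockdown, with no overlap (log2 fold change -0.22, edgeR adjusted p = 1.29e-05). Its relative Elavl2 fell by 0.19 on the log2 scale (adjusted p = 0.00022), with treatments that overlapped across batches, which differed by 0.31. Nova1 was at 40.8 ± 1.27 CPM in the controls and 47.7 ± 0.891 CPM after knockdown (SD, n = 4 each) and rose by 0.21 on the log2 scale (edgeR adjusted p = 0.00015). Khdrbs3, which encodes a STAR family protein, fell by 0.12 (adjusted p = 0.013), and Ptbp3 rose by 0.10 (0.021).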
